A study of Mus musculus with 20 samples.

Results

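The 10 genes described here are the keratins and contractile genes by which mammary pathology separates luminal from basal and myoepithelial cells. They are the luminal keratins Krt7, Krt8, Krt18 and Krt19, the basal keratins Krt5, Krt14 and Krt17, the basal transcription factor Trp63, and the smooth muscle genes Acta2 and Cnn1. They were taken by name from a table of read counts on 43346 genes, where each of the 10 was found in 1 row. The counts come from 20 breast tumors, 1 from each of 20 female F1 mice of a BALB/c-neuT male and an FVB/J female. All 20 mice carried neuT, the activated rat form of the Her2/neu oncogene, which in this line is driven by the mouse mammary tumor virus promoter and is therefore active in mammary epithelium. There was no normal mammary gland or tumor without the oncogene, so every statement below compares tumors with tumors. The sample names carry Lo (9 tumors) or Hi (11 tumors), whose meaning the sources used here do not give, and tumors are named by that label and its number. Tumors arose spontaneously and were taken at a late stage, and the age of each mouse is not given.

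Keratins form the intermediate filaments of epithelial cells, and each filament is built from pairs of a type I and a type II chain. In the mammary gland the inner, milk-producing luminal cells make Krt8 (type II) with Krt18 (type I), together with Krt7 (type II) and Krt19 (type I). The outer basal or myoepithelial cells make Krt5 (type II) with Krt14 and Krt17 (type I) under the control of p63, the product of Trp63. Myoepithelial cells also contract, and for this use smooth muscle actin (Acta2) and calponin (Cnn1), which vascular smooth muscle, pericytes and activated fibroblasts make as well. Krt5 and Krt14 are at the same time the keratins of the basal layer of the skin, which lies next to the gland. Mouse tumors driven by Her2/neu are known for a luminal cell type.

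Depth was 38765682 to 65465755 counts in the single tumors, of which the ribosomal RNA locus took 6.29% to 27.7%. Levels are given as CPM (counts per 1000000 reads after TMM scaling, which evens out differences in library composition), and as RPKM (counts per 1000000 reads and per 1000 bases of the gene, without that scaling) where genes are compared with each other. The summed level of 16 luminal markers lay between 2481 and 3703 CPM in the single tumors. Among them the adhesion protein Epcam was high in every tumor, with a lowest level of 876.4 CPM and a median of 1054 CPM. The sum does not speak for each marker, since the medians of Foxa1 and Pgr, of the same list, were 0.4003 and 0.606 CPM. In 2 tumors, Hi_3 and Hi_8, transcripts of the differentiated epidermis stood apart. The summed level of 14 genes of skin and hair follicle was 360.1 CPM in Hi_3 and 40.8 CPM in Hi_8, against 12.03 to 19.99 CPM in the other 18 tumors. Krt1, a keratin of the upper epidermis, had 6394 counts in Hi_3 and 248 in Hi_8, and at most 19 counts in any of the other 18. Results that rest on these 2 tumors are therefore given with and without them. These are pieces of whole tumors, so fewer cells of a type and less RNA per cell cannot be told apart.

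The DNA just before the start of these genes is shown for the 5 of them whose start in RefSeq lay within 50 bases of the counted gene's start, because Krt8 and Krt18 moved together across tumors, Acta2 and Cnn1 are the contractile genes of the set, and Krt5 varied most. Of the 10 genes, 7 were in the RefSeq table of starts (GRCm38.p6), with Krt19, Krt17 and Trp63 missing. The entries of Krt7 and Krt14 began 1360 and 1518 bases inside the counted gene and are not shown. Each line gives the 250 bases before the start, 5′ to 3′ on the gene's strand. Capitals mark TATAA (the core of the TATA box), GGGCGG (an Sp1 box), GCCNNNGGC (an AP-2 motif) or the CArG box of smooth muscle genes, the last with at most 1 of its 6 middle bases other than A or T. Both strands were searched, over these 250 bases and the 50 after the start.
Krt8 (chr15:102004343-102004592, - strand): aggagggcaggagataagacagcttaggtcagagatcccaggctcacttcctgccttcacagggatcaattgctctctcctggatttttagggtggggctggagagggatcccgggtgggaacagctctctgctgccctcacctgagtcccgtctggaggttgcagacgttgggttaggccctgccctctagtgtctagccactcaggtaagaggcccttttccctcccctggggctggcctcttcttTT
Krt18 (chr15:102027966-102028215, + strand): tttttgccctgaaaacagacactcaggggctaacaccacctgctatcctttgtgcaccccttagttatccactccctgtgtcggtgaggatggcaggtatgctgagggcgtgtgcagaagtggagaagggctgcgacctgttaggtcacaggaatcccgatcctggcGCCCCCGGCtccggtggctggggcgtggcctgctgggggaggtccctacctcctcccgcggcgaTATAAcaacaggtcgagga
Krt5 (chr15:101712906-101713155, - strand): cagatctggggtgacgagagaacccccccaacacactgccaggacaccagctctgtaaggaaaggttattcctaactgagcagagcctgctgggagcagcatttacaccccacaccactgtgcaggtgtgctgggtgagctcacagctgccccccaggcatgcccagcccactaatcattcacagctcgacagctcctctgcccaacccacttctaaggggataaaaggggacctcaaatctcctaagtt
Acta2 (chr19:34255374-34255623, - strand): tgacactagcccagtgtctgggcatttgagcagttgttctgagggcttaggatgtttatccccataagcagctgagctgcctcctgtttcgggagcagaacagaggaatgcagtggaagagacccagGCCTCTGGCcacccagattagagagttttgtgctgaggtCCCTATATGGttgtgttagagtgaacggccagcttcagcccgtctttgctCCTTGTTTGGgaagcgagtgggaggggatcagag
Cnn1 (chr9:22099003-22099252, + strand): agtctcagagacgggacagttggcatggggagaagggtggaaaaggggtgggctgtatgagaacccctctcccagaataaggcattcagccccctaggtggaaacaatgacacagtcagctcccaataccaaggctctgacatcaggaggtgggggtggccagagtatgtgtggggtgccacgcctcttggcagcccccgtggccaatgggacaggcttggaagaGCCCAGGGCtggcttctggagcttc
Krt18 held TATAA at 19 bases before its start and an AP-2 motif at 83 bases before it. TATAA in Krt8 began at the last base shown, overlapping a copy on the other strand, and in Acta2 at base 11 after the start, so neither is marked in full. Acta2 held a pair of CArG boxes, at 84 and 34 bases before the start, which do not overlap each other or its AP-2 motif. Cnn1 held an AP-2 motif and no CArG box in this window, and Krt5 held none of the 4 motifs. Of all 32851 windows of this length in the table, 24.9% held TATAA, 35.7% GGGCGG, 16.6% the AP-2 motif and 9.98% the CArG box. These matches describe letters and were not tested for binding.

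The luminal pair Krt8 and Krt18 dominated the keratins of every tumor. Krt18 (ENSMUSG00000023043, Chr15, 102028216 to 102032026, mm10) averaged 558.4 ± 111.9 RPKM (SD, n = 20) and Krt8 (ENSMUSG00000049382, Chr15, 101996711 to 102004342) 437.3 ± 69.0 RPKM (SD, n = 20). Together they made up between 76.4% (Hi_3) and 96.7% (Lo_2) of the RPKM of all 48 type I and type II keratins counted, with a median of 95.02%. The 3 basal keratins made up 0.0985% (Lo_4) to 3.85% (Hi_3) of the RPKM of the 7 keratins described here, with a median of 0.232%.

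**Figure D1:**
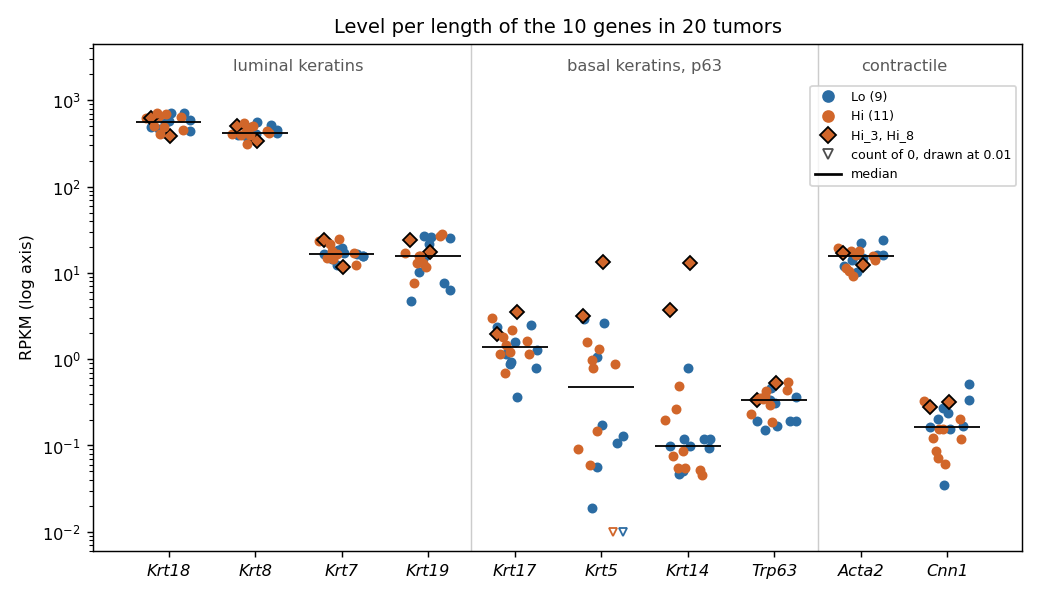
Level per length (RPKM, log axis) of the 10 genes in each of 20 tumors, with 9 Lo tumors in blue, 11 Hi tumors in orange, Hi_3 and Hi_8 as diamonds, the median as a line and counts of 0 as open triangles at 0.01. Krt18 and Krt8 lie above 300 RPKM in every tumor, while Krt5 and Krt14 spread over more than 100-fold with Hi_3 highest in both.

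Krt8 ranged from 567.9 CPM (Hi_3) to 1106 CPM (Lo_11), with a median of 799.7 CPM. Krt18 ranged from 505.1 CPM (Hi_3) to 1084 CPM (Lo_11), with a median of 763.8 CPM. The same tumor, Hi_3, was therefore lowest and the same tumor, Lo_11, highest in both genes. Per length, Krt18 was above Krt8 in 20 of 20 tumors, by 0.34 ± 0.15 on the log2 scale (SD of the difference, n = 20, adjusted p = 6.0e-05 in a paired sign-flip permutation test over 9 neighbour pairs, two-sided). The ratio of Krt18 to Krt8 ran from 1.06 in Lo_9 to 1.55 in Hi_1. Summed over the 7 keratins, the ratio of type I to type II chains was 1.26 ± 0.12 (SD, n = 20) and stayed between 1.06 (Lo_9) and 1.51 (Hi_1). Lengths enter this ratio, since in CPM alone the geometric mean of type I to type II was 0.888.

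Krt7 (ENSMUSG00000023039, Chr15, 101411043 to 101430313) and Krt19 (ENSMUSG00000020911, Chr11, 100140810 to 100148665), the other luminal keratins, lay far below this pair. Krt7 averaged 17.2 ± 3.71 RPKM (SD, n = 20) and ranged from 77.5 CPM (Hi_3) to 170.4 CPM (Hi_8), with a median of 121.6 CPM. It was 4.67 log2 units below Krt8 per length and lower in 20 of 20 tumors (adjusted p = 6.0e-05, sign-flip permutation test). Krt19, which can replace other type I chains in simple epithelia, averaged 16.7 ± 7.55 RPKM (SD, n = 20). It ranged from 9.45 CPM (Lo_3) to 52.7 CPM (Lo_11), a 5.58-fold range with a median of 29.5 CPM. The low Krt19 tumors were Lo_3, Lo_2 (13.1 CPM), Lo_8 (13.2 CPM) and Hi_10 (13.9 CPM), and the high ones Lo_11, Lo_4 (51.6 CPM) and Hi_5 (50.6 CPM), so both ends of the range held Lo as well as Hi tumors.

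Krt5 (ENSMUSG00000061527, Chr15, 101707070 to 101712891), the type II keratin of basal cells, was the most variable of the 10 genes. It had 1373 counts in Hi_3 and 366 in Hi_8, but also 364 in Lo_3, 332 in Lo_11 and 205 in Hi_10. Lo_4 and Hi_2 had 0 counts, which at their depth allows up to 0.0678 and 0.0413 CPM. The median was 1.06 CPM, and the level in Hi_3 was 27.3 CPM. Without Hi_3 and Hi_8 the tumors fell into 8 with 1.78 to 6.88 CPM (Lo_3, Lo_9, Lo_11, Hi_4, Hi_5, Hi_6, Hi_7 and Hi_10) and 10 with at most 0.332 CPM, with no tumor in between. This split was made after the values were seen and gets no test.

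Krt14 (ENSMUSG00000045545, Chr11, 100203162 to 100207548), the type I partner of Krt5 in basal cells, was highest in Hi_3 and Hi_8, as Krt5 was. In the other 18 tumors Krt14 had 4 to 66 counts and did not follow Krt5 (r = -0.08). It had 1094 counts in Hi_3, 340 in Hi_8, 66 in Lo_1, 47 in Hi_4 and at most 25 in the other 16 tumors, with a median of 0.189 CPM. In the 8 tumors with Krt5 above 1 CPM, Krt14 had a median of 0.114 CPM and a highest value of 0.892 CPM. In the 10 tumors with less Krt5 its median was 0.198 CPM and its highest value 1.22 CPM, so the Krt14 levels of the 8 and the 10 overlapped. Per length the ratio of Krt5 to Krt14 was 1.01 in Hi_3 and 0.864 in Hi_8, the tumors with epidermal transcripts. In the 8 tumors it was 1.61 in Hi_4 and 17.5 (Hi_6) to 29.2 (Lo_3) in the other 7. The ratios of these 7 rest on Krt14 counts of 4 (Hi_5, Hi_6 and Hi_7) to 10 (Lo_3 and Lo_11), where counting error is large. The epidermal list did not separate these tumors, since its summed level was 13.4 to 19.99 CPM in the 8 tumors with Krt5 and 12.03 to 19.96 CPM in the 10 with less. The defining gene Krt1 had 0 (Lo_9 and Hi_6) to 19 counts (Hi_4) in the 8 and 2 to 12 counts in the 10. Krt14, Krt16 and Krt17 are alike in sequence, and how reads that fit several of them were counted is not given in the sources used here.

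**Figure D2:**
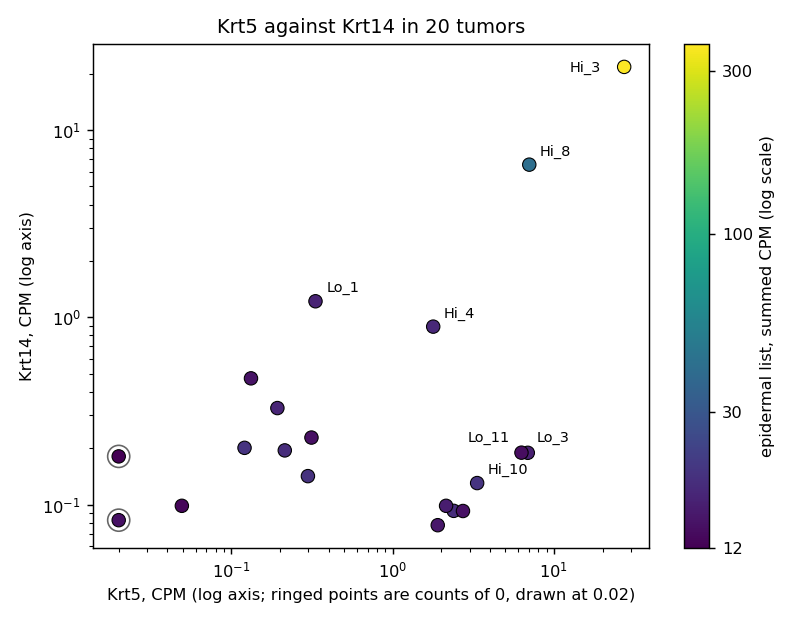
Krt5 against Krt14 (CPM, both axes log) in 20 tumors, colored by the summed CPM of 14 epidermal genes, with the 2 tumors without a Krt5 count ringed at 0.02. Hi_3 and Hi_8 are high in all 3 measures, and 7 tumors with Krt5 above 1 CPM lie at the bottom right, with Krt14 below 0.2 CPM.

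Krt17 (ENSMUSG00000035557, Chr11, 100256217 to 100261029), a type I keratin of basal and stressed epithelia, was low but detected in every tumor. It ranged from 0.606 CPM (Lo_11) to 5.14 CPM (Hi_3), with a median of 2.16 CPM and 32 to 259 counts. Hi_1 (4.49 CPM) and Lo_3 (4.03 CPM) came next. Their summed epidermal lists (17.1 and 16.3 CPM) lay within the range of the other tumors without epidermal transcripts. Krt75, a type II keratin outside that list, was highest in Hi_1 (5.71 CPM, 296 counts), against a median of 0 counts. Trp63 (ENSMUSG00000022510, Chr16, 25683763 to 25892102) ranged from 1.48 CPM (Hi_7) to 4.45 CPM (Hi_5), with a median of 2.85 CPM and 62 to 243 counts. Hi_3 had 4.23 CPM and Hi_8 2.84 CPM, within the range of the tumors without epidermal transcripts, so Trp63 did not stand out where Krt5 and Krt14 did. Of the 14 genes of the basal list, 6 passed the filter on low counts. Their medians were 246.4 CPM for Itgb4, a hemidesmosome integrin, 13.1 CPM for Lgals7, 10.99 CPM for Dsg3, 6.34 CPM for Oxtr, 5.48 CPM for Cdh3 and 1.02 CPM for Snai2, and none of the 6 was highest in Hi_3. The other 8 had medians of at most 0.172 CPM, and all of them but Id4 (highest in Hi_8) had their highest level in Hi_3.

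Of the contractile genes, Acta2 (ENSMUSG00000035783, Chr19, 34241090 to 34255336) was detected throughout and Cnn1 (ENSMUSG00000001349, Chr9, 22099281 to 22109630) hardly. Acta2 averaged 15.4 ± 3.92 RPKM (SD, n = 20) and ranged from 17.2 CPM (Hi_4) to 47.6 CPM (Lo_4), with a median of 27.8 CPM. Lo_4 stood above the next tumors, Lo_1 (34.7 CPM) and Hi_1 (33.4 CPM). Cnn1 averaged 0.199 ± 0.116 RPKM (SD, n = 20), with 4 counts in Lo_7 to 59 in Lo_4 and a median of 22.5 counts. Acta2 and the other actin genes are near-identical in their coding sequence, and reads that fit several of them cannot be assigned from these counts.

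Set in order of their mean level per length, on the scale of log2(RPKM + 0.1), the genes ran Krt18, Krt8, Krt7, Acta2, Krt19, Krt17, Krt5, Trp63, Krt14 and Cnn1. Of the 9 neighbour pairs, 4 had a mean difference apart from 0 at an adjusted p under 0.05 in the sign-flip permutation test. These were Krt18 over Krt8, Krt8 over Krt7, Krt19 over Krt17 (3.32 log2 units, 20 of 20 tumors) and Krt17 over Krt5 (1.38 log2 units, higher in 13 of 20 tumors, adjusted p = 0.020). Krt7, Acta2 and Krt19 could not be told apart (Krt7 over Acta2 by 0.18, adjusted p = 0.11; Acta2 over Krt19 by 0.0050, adjusted p = 0.98). Among Krt5, Trp63, Krt14 and Cnn1 no neighbours differed on this scale, but Trp63 over Cnn1 passed on log2(RPKM + 1) (adjusted p = 0.0098, higher in 16 of 20 tumors, sign-flip permutation test) and without Hi_3 and Hi_8 (adjusted p = 0.011, higher in 14 of 18). On log2(RPKM + 1) Krt5 over Krt14 also passed (adjusted p = 0.048), while Krt17 over Krt5 did not (difference 0.45, adjusted p = 0.079, sign-flip permutation tests). The listed length of Krt7 (7055 bases) is 1.72 times that of its longest coding transcript (4094 bases). With transcript lengths Krt7 averaged 29.7 RPKM, 7 of 9 neighbours differed, and Krt7, Krt19 and Acta2 came in that order, with Trp63 over Krt14 also past the threshold (adjusted p = 0.041, sign-flip permutation test).

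Across the 20 tumors Krt18 moved with Krt8 and with Krt7, and no pair of basal or contractile genes passed the test. Of the 45 pairs among the 10 genes, 6 had an absolute Pearson r of log2 CPM of at least 0.5, against 8.53% of all pairs of 18883 genes. In 5 of the 6 r was positive, against 4.62% of all pairs. Without Hi_3 and Hi_8 there were again 6 such pairs, 4 of them positive, against 9.9% and 5.3% of all pairs. After Benjamini-Hochberg adjustment over the 45 pairs, 2 passed in a permutation test of r (9 at an unadjusted p under 0.05), and 3 by Spearman's rho. Krt8 with Krt18 had r = 0.85 and rho = 0.82 (adjusted p = 0.00090 and 0.0027, permutation test, n = 20), with r between 0.82 and 0.89 when any 1 tumor was left out. Only 10 of 18882 genes followed Krt8 more closely than Krt18 did. Krt18 with Krt7 had r = 0.75 and rho = 0.72 (adjusted p = 0.0040 and 0.014, permutation test, n = 20). Krt8 with Krt7 passed by rho only (r = 0.61, adjusted p = 0.070; rho = 0.66, adjusted p = 0.031; permutation test, n = 20). With the 2 most extreme tumors in the first gene of a pair left out, r was 0.77, 0.71 and 0.53 for these 3 pairs. Without Hi_3 and Hi_8 r was 0.81, 0.68 and 0.46 (adjusted p = 0.0031, 0.042 and 0.32, permutation tests, n = 18), and by rho 1 pair passed, Krt8 with Krt18. Within the 11 Hi tumors r was 0.90, 0.88 and 0.75, and within the 9 Lo tumors 0.81, 0.46 and 0.38, and the difference between the groups was not tested.

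**Figure D3:**
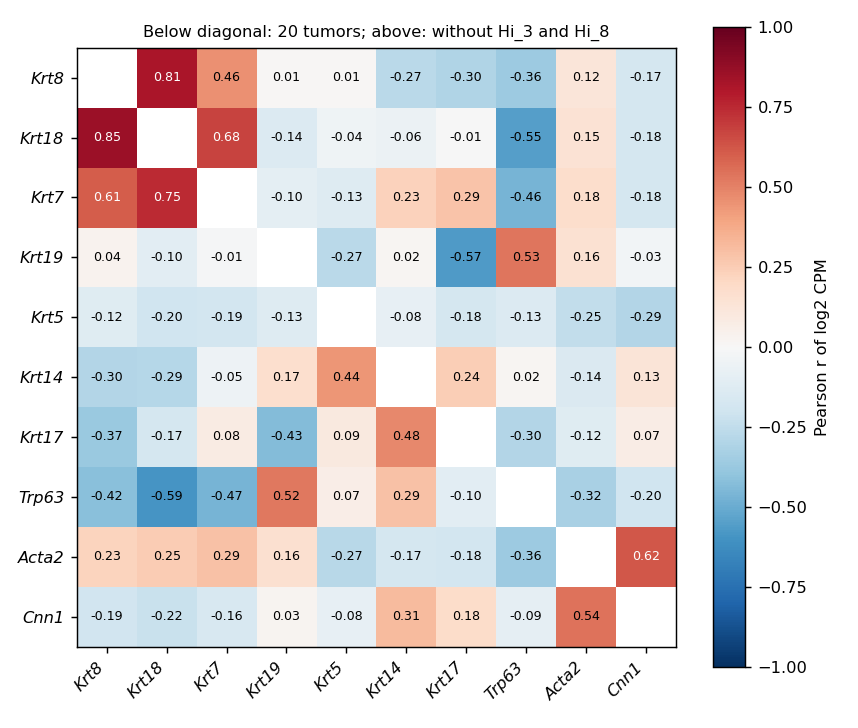
Pearson r of log2 CPM for the 45 pairs of the 10 genes, over 20 tumors below the diagonal and over 18 tumors, without Hi_3 and Hi_8, above it. Krt8, Krt18 and Krt7 form the red block at the upper left, and Krt5 with Krt14 goes from 0.44 to -0.08 without the 2 tumors.

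Krt19, although a luminal keratin, did not move with these 3, with r of 0.04 to Krt8, -0.10 to Krt18 and -0.01 to Krt7. Its largest values were 0.52 with Trp63 (adjusted p = 0.14) and -0.43 with Krt17 (adjusted p = 0.25, permutation tests, n = 20), neither past the threshold. Krt18 and Trp63 were opposed (r = -0.59, rho = -0.56, adjusted p = 0.070 and 0.14, permutation tests, n = 20), also short of the threshold. Krt5 with Krt14 had r = 0.44 but rho = 0.17 (adjusted p = 0.24 and 0.95, permutation tests, n = 20). Without Hi_3 and Hi_8 r was -0.08, so that the pooled value rested on those 2 tumors. Krt14 with Krt17 likewise went from 0.48 to 0.24. Acta2 with Cnn1 had r = 0.54 (adjusted p = 0.12, permutation test, n = 20), with 0.90 within the 9 Lo and 0.01 within the 11 Hi tumors and 0.40 without Lo_4. Krt17 with Krt19 had r = -0.85 in the Lo and 0.09 in the Hi tumors, and neither contrast between groups was tested.

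Each gene was then set against 14 other measures of the same tumors, namely the mean z-scores of 11 marker lists, the share of the ribosomal RNA locus, the total count and the dosage of its own chromosome. Of these 140 relations, 3 passed at an adjusted p under 0.05, and 22 at an unadjusted one. Acta2 followed the contractile list (11 genes, among them Tagln and Myl9) with r = 0.77 and rho = 0.75 (adjusted p = 0.0084 and 0.036, permutation test, n = 20). Without Lo_4 this r was 0.66 and its adjusted p 0.073, and without the 2 tumors of the most extreme score it was 0.66, while within Lo and within Hi it was 0.84 in each. Acta2 also had r of 0.63 to 0.65 with the pericyte, fibroblast and endothelial lists (adjusted p = 0.051 for each, permutation tests, n = 20), and r = 0.24 with the basal and 0.11 with the luminal list. Without Hi_3 and Hi_8 r with the fibroblast list was 0.74 and passed (adjusted p = 0.025, permutation test, n = 18). With the skeletal muscle list (10 genes, among them the actin gene Acta1) Acta2 had r = 0.46 (adjusted p = 0.27, permutation test, n = 20). Without Hi_3 and Hi_8 that r was 0.55 (adjusted p = 0.19, permutation test, n = 18). The summed skeletal muscle list ran from 5.15 to 1153 CPM (Hi_6), and its part in the level of Acta2 was not tested. Cnn1 followed the pericyte list (9 genes, among them Notch3 and Rgs5) with r = 0.69 and rho = 0.58 (adjusted p = 0.047 and 0.19, permutation test, n = 20), and the adjusted p passed in 9 of the 20 sets that leave out 1 tumor. It was highest, at 0.11, without Lo_7, and was also over 0.05 without Lo_1, Lo_3, Lo_4, Lo_6, Lo_9, Lo_11, Hi_1, Hi_5, Hi_7 or Hi_8. Without both Hi_3 and Hi_8 r of Cnn1 with the pericyte list was 0.79 (adjusted p = 0.0084, permutation test, n = 18). On log2(RPKM + 1) that r was 0.51 over 20 tumors and did not pass (adjusted p = 0.25, permutation test). The summed contractile list was at 523 to 789 CPM in Lo and 560 to 764 CPM in Hi tumors, and the pericyte list at 269.8 to 394 and 281 to 404 CPM, with all 11 and all 9 of their genes tested and none without counts. The part of these cells in the levels of Acta2 and Cnn1 was not tested.

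Krt19 followed the leukocyte list (10 tested genes, among them Csf1r and Laptm5) with r = 0.69 and rho = 0.64 (adjusted p = 0.047 and 0.12, permutation test, n = 20). The adjusted p passed in 11 of the 20 sets that leave out 1 tumor and was highest, at 0.079, without Lo_3, with Lo_1, Lo_4, Lo_6, Lo_9, Lo_11, Hi_5, Hi_7 and Hi_8 as the other tumors without which it did not pass. Within the Lo tumors r was 0.92 and within the Hi tumors 0.42. Krt19 also had r of 0.53, 0.51 and 0.47 with the basal, contractile and fibroblast lists, none past the threshold (adjusted p = 0.15, 0.18 and 0.25, permutation tests, n = 20). Krt17 ran the other way, with r = -0.63 to the leukocyte list (adjusted p = 0.051) and -0.70 without Hi_3 and Hi_8 (adjusted p = 0.035, permutation tests, n = 18), but -0.28 on log2(RPKM + 1) (adjusted p = 0.62). The summed leukocyte list was at 136.7 to 219.8 CPM in Lo and 153.8 to 208.5 CPM in Hi tumors, with 10 of 11 genes tested, and its part in either gene's variation was not tested. With the luminal list Krt19 had r = 0.62 (adjusted p = 0.053) and Krt17 r = -0.59 (adjusted p = 0.071, permutation tests, n = 20), neither past the threshold, and r of Krt17 with the luminal list was -0.28 on log2(RPKM + 1). Krt14 had r = 0.81 with the epidermal list (rho = 0.33, adjusted p = 0.051 and 0.62, permutation tests, n = 20) and r = -0.10 without Hi_3 and Hi_8.

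Krt7, Krt8, Krt18 and Krt5 lie on Chr15, which varied more in dosage than the other chromosomes of these genes. Dosage is the median log2 deviation of a chromosome's other genes from that of all autosomal genes in the same tumor, here over 476 genes of Chr15. It ran from -0.09 (Hi_2) to 0.20 (Hi_8) with an SD of 0.077, against SDs of 0.020 to 0.023 for Chr9, Chr11, Chr16 and Chr19. Krt8 had r = 0.61 with it, Krt18 0.53 and Krt7 0.50, none past the threshold (adjusted p = 0.060, 0.15 and 0.20, permutation tests, n = 20). Krt5, on the same chromosome, had r = 0.31. Within the Lo tumors r was 0.86 for Krt8, 0.70 for Krt18 and 0.27 for Krt7, and within the Hi tumors 0.56, 0.45 and 0.58. The range of dosage, a median over many genes, was 0.29 log2 units. The single genes Krt8 and Krt18 had ranges of 0.96 and 1.10, which is an unlike measure. The part of dosage in the levels of these genes was not tested.

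**Figure D4:**
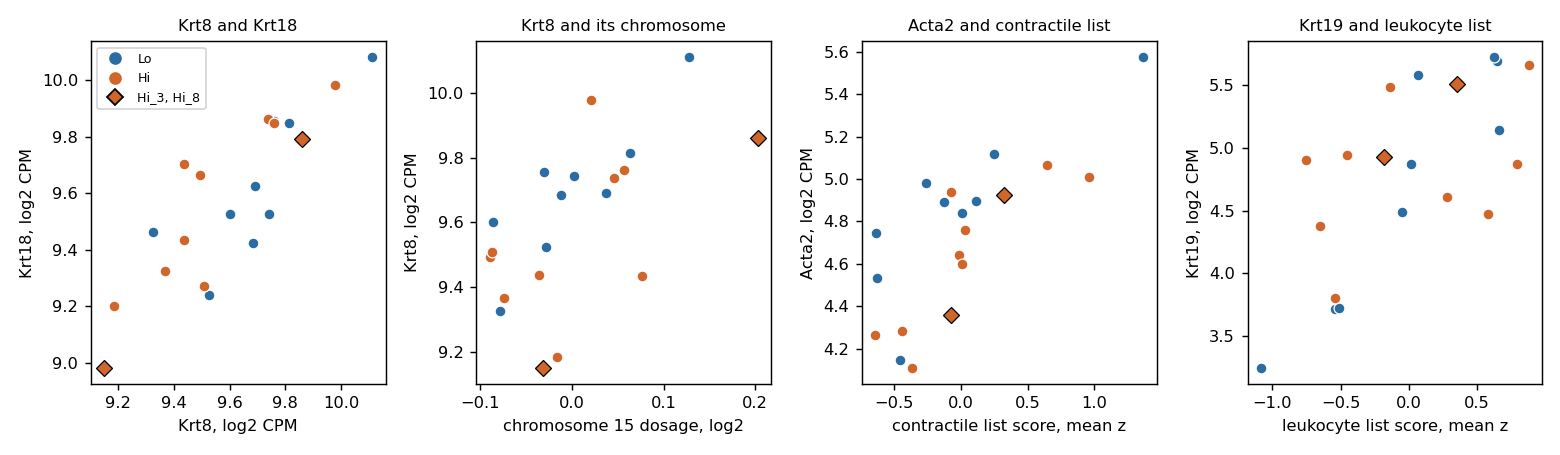
Relations over 20 tumors (Lo blue, Hi orange, Hi_3 and Hi_8 as diamonds): Krt18 against Krt8 (log2 CPM), Krt8 against the dosage of Chr15 (log2), Acta2 against the contractile list and Krt19 against the leukocyte list (mean z-score). The r values are 0.85, 0.61, 0.77 and 0.69 from left to right, with Lo_4 as the top right point of the third panel.

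The genes whose level was most like each member's, by Pearson r of log2 CPM over 20 tumors among 15391 other genes with a mean of at least 1 CPM, are given as a description with no test. For Krt8 they were Josd1 and Tspo (both Chr15, r = 0.88 and 0.87) and Plin3 (r = 0.87). For Krt18 they were Rpl8, a ribosomal protein gene of Chr15 (r = 0.91), Adssl1 and Pafah1b3 (r = 0.87 for each). Chr15 holds 3.81% of the genes ranked. Krt7 was most like Akip1, Mrpl43 and Vamp8 (r = 0.90, 0.89 and 0.86). Krt19 was most like Cyth4, Msrb3 and Cd74, the invariant chain of antigen presentation (r = 0.84, 0.83 and 0.83). Acta2 was most like Cd248, Rcn3 and Col5a1, a fibrillar collagen gene (r = 0.85, 0.84 and 0.84), and Cnn1 like Fbxo45, Kank2 and Lamc1 (r = 0.79, 0.77 and 0.76). Trp63 was most like 1110037F02Rik, Rnf20 and Erbb4, a receptor of the Her2 family (r = 0.86, 0.86 and 0.85). Krt14 was most like Dmkn and Krt10, both epidermal genes, and Dbnl (r = 0.81, 0.81 and 0.78), and without Hi_3 and Hi_8 none of the 3 closest genes remained for Krt14 or for Cnn1. Krt5 had the loosest likeness, with Snx24, Prkag2 and Gm14373 at r = 0.70, 0.65 and 0.64, and Krt17 was most like Pomt2, Dcun1d2 and Gm9816 (r = 0.79, 0.78 and 0.77).

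Compared with other genes, Krt5 and Krt14 varied more from tumor to tumor than nearly all others, and Krt8 stood near the middle of all genes tested. The highest tumor was at least 2 times the lowest on the log2 CPM scale for 9 of the 10 genes, against 47.6% of the 18883 genes tested, and without Hi_3 and Hi_8 for 7 of 10 against 45.7%. The SD of log2 CPM over the 20 tumors was 2.70 for Krt5, higher than that of 99.9% of genes, and 2.42 without the 2 tumors. For Krt14 it was 1.995, and 0.98 without them. Krt19 had an SD of 0.74, higher than 99.3% of the 2950 genes within 0.5 log2 units of its level. Krt8 had 0.25, higher than 50.2% of all genes, and Krt18 and Krt7 had 0.29 and 0.30. Krt5 had 3 counts or fewer in 3 tumors, Cnn1 had 4 to 59 counts, and Krt14 had 4 to 66 outside Hi_3 and Hi_8, where counting error is large. On log2(RPKM + 1) the SD was 0.99 for Krt5 and 0.93 for Krt14, higher than that of 99.7% and 99.6% of genes.

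Between Lo and Hi tumors none of the 10 genes passed the test. All 10 passed the filter on low counts, and edgeR's quasi-likelihood test called 0 of 10 and 0 of all 18883 genes (0.0%) at an adjusted p under 0.05. At an unadjusted p under 0.05 it found 1 of the 10 and 1045 genes in all (5.53%), and DESeq2 called 1 gene, Serpina3g, which is not among the 10. The gene with the smallest p was Krt14, with 0.0926 to 1.22 CPM (median 0.189) in Lo and 0.0777 to 21.7 CPM (median 0.142) in Hi. Its log2 fold change was 3.23 (standard error 1.07, unadjusted p = 0.0063, adjusted p = 0.69 by edgeR), although the median was lower in Hi. Hi_3 and Hi_8 are both Hi tumors, and without them Krt14 no longer passed the filter. Krt5 had 0 to 6.88 CPM (median 0.314) in Lo and 0 to 27.3 CPM (median 1.90) in Hi. Its log2 fold change was 1.19 (standard error 0.99, adjusted p = 0.9996 by edgeR), and -0.43 without the 2 tumors.

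Trp63 had 1.48 to 3.76 CPM (median 1.77) in Lo and 1.48 to 4.45 CPM (median 2.97) in Hi, so the groups overlapped over most of their range (log2 fold change 0.41, standard error 0.21, adjusted p = 0.93 by edgeR). Cnn1 had 0.080 to 1.33 CPM (median 0.498) in Lo and 0.139 to 0.732 CPM (median 0.341) in Hi (log2 fold change -0.54, standard error 0.36, adjusted p = 0.9996 by edgeR). For the 4 luminal keratins the log2 fold changes lay between -0.15 and 0.06, for Krt17 at 0.37 and for Acta2 at -0.24, each with an adjusted p of 0.9996 by edgeR. The ratio of type I to type II keratins was 0.29 ± 0.14 (SD, n = 9) in Lo and 0.37 ± 0.13 (SD, n = 11) in Hi on the log2 scale (exact permutation test, two-sided p = 0.18). The ratio of basal to luminal keratins was -9.03 ± 0.81 (SD, n = 9) in Lo and -8.28 ± 1.396 (SD, n = 11) in Hi (exact permutation test, two-sided p = 0.16), and the difference of 0.75 became 0.21 without Hi_3 and Hi_8 (exact permutation test, p = 0.52). Of the other keratins of the table, 0 of 7 that passed the filter were called.

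**Figure D5:**
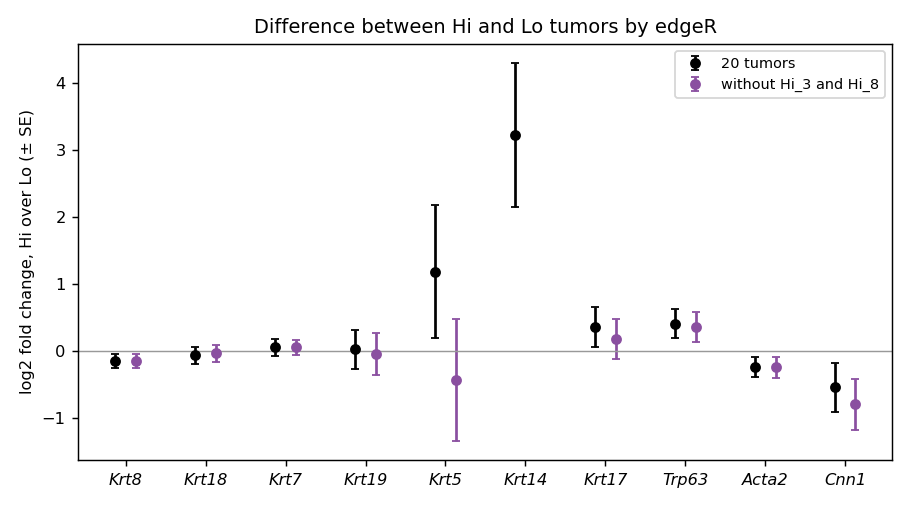
Log2 fold change of Hi over Lo for the 10 genes from edgeR, with standard errors, over 20 tumors (black) and without Hi_3 and Hi_8 (purple, 9 genes, since Krt14 did not pass the filter there). The fold changes of Krt5 are 1.19 and -0.43, and those of the luminal keratins lie near 0 in both.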

How the data were processed

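RNA of 20 breast tumors, 1 per F1 mouse, was sequenced (poly(A) TruSeq libraries, paired-end reads of 150 bases trimmed to 100). The authors aligned reads to mm10 with TopHat within MapRseq, and the submitters' processing notes name TopHat2 2.0.12 and featureCounts 1.4.4. The deposited values are raw gene counts for each tumor, without pooling. The annotation release and strand setting are not given in the sources used here, so Krt8, Krt7, Krt5 and Trp63, which overlap other genes, are uncertain to that extent. Depth was 38765682 to 65465755 counts per tumor, and limits from a count of 0 cover counting error only. Nothing in the labels marks tumors of 1 group as more than separate mice.

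From these counts CPM was computed with TMM factors (log2 CPM with a prior count of 2), and RPKM with the listed length, which is that of all exons and not of the coding part. In R 4.3.3, Lo and Hi were compared by the quasi-likelihood test of edgeR 4.0.16 after filterByExpr and TMM, at a Benjamini-Hochberg adjusted p under 0.05. DESeq2 1.42.0 served as a second tool. Correlations and levels used permutation tests (100000 permutations, two-sided, exact for 9 tumors) in Python 3.11.15 with numpy 2.4.6, pandas 2.3.3 and scipy 1.17.1. Transcript lengths and overlaps came from GENCODE M21. Scripts were tested on simulated data. The 10 genes and all lists were chosen with earlier results of these data known. Named genes were the 10, the 3 most like each, up to 4 of each list by RPKM, other keratins of at least 1 RPKM and up to 5 genes past the Lo against Hi threshold. Cdh3, Snai2, Id4, Foxa1, Pgr, Krt75 and Serpina3g were named after their values were seen. Leaving out Hi_3 and Hi_8, transcript lengths and leaving out 1 tumor at a time were added after the data were seen.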

Additional observations from a re-analysis of the deposited data

Results flagged for a closer look

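Krt14 in Lo_1 (1.22 CPM, 66 counts) stood apart from the other 8 Lo tumors, the highest of which had 0.228 CPM. The gap was 0.880 of the range of the 9 Lo tumors, which is above Dixon's limit at 95%. Chance alone gives about 1 such value in 20 groups, and 10 groups of values were checked. The epidermal list in Lo_1 (16.7 CPM) was within the range of the other tumors without epidermal transcripts, and Krt5 had 18 counts. The 11 Hi tumors were not checked in this way.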

How the results depend on the processing

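The number of genes called between Lo and Hi was 0 by edgeR and 1 both by DESeq2 and without a filter on low counts, and no member was called under any of these. With transcript lengths 7 neighbour pairs of levels differed in place of 4. Of the member pairs, 2 passed, 0 within the Lo tumors, and 2 to 4 when 1 tumor was left out. Of the relations with other measures, 3 passed, 5 on log2(RPKM + 1) and 5 without Hi_3 and Hi_8, 0 without the 2 tumors farthest from the median, 0 within Lo and 0 within Hi, and 0 (without Lo_4) to 8 (without Lo_8) when 1 tumor was left out. The cause of these changes was not tested, and several of these settings also hold fewer tumors. Reversed in sign were Krt5 (-0.43) and Krt19 (-0.0450) between Lo and Hi without Hi_3 and Hi_8, Krt5 with Krt14 within Lo (r = -0.0548) and without Hi_3 and Hi_8 (-0.0784), Krt19 with Krt17 within Hi (0.0859), and Krt14 with the epidermal list within Lo (-0.0439), without the 2 farthest tumors (-0.0980) and without Hi_3 and Hi_8 (-0.0980). Of 187 values of single genes, pairs, relations and spreads under an alternative, 158 were labelled as the same. For genes, pairs and relations this means the same side of the threshold and the same sign. An SD has neither, and was labelled as the same if close to that of the main setting. The others were 12 weaker, 3 stronger, 8 reversed and 6 moved, the last all SDs. Tumors of 1 number in Lo and Hi did not stand out as alike (r of their deviations -0.42 to 0.21, above 0.1 in 3 of 9, own number best in 1 of 9). The labels do not say whether such tumors are linked, which these values cannot decide. With the number as a replicate block, edgeR called 0 genes, and the type I to type II difference was 0.11 (exact sign-flip permutation p = 0.047, over the 9 shared numbers, 18 tumors) in place of 0.08 over all 20, so that the set of tumors changed as well as the block. Depth limits Krt5, with 0 counts in Lo_4 and Hi_2, and Krt14 and Cnn1, with 4 counts in the lowest tumors.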
